A study of Bos taurus with 15 samples.

Results

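The 200 genes whose expression differed least between heifers were examined in peripheral white blood cells (PWBC) at weaning. They were chosen from the raw gene counts of 15 heifers, of which 8 later became pregnant to artificial insemination (AI) and 7 were later found not pregnant. Counts were scaled to a common library size, as CPM, with TMM factors that also correct for differences in composition between libraries. Of the 27607 genes listed, 12270 reached 1 CPM in 8 or more heifers and were kept. Among the 6959 kept genes with a mean of at least 20 CPM, the 100 with the highest mean of all and 5 set-aside gene IDs, of which 2 were also among those 100, were left out. The 200 members are those with the lowest coefficient of variation (CV, the SD divided by the mean over all 15 heifers) among the 6856 genes that remained, here called eligible. They are 2.92% of the eligible genes and 1.63% of the kept genes. The members were therefore chosen by the same spread that is described first, and that spread is given as a description without a test.

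All animals were Angus-Simmental crossbred heifers and were sampled at weaning, before breeding. They were later bred under one protocol with fixed-time AI, followed by exposure to fertile bulls. The group of each heifer was known only later, from the pregnancy check after AI and bull exposure. Heifers pregnant to natural service were a further class in the study and are not among these 15. The paper describes the not-pregnant heifers as open, while their labels read not pregnant to AI. Heifers pregnant to AI had IDs 4, 6, 34, 40, 41, 43, 45 and 47, and not-pregnant heifers had IDs 3, 33, 37, 39, 42, 44 and 48. Each heifer gave 1 library, with 15987111 to 24909038 counts on genes, so the heifer was the replicate. The deposited tables list genes by Ensembl ID and do not pair the IDs with gene names. None of the 27607 IDs could be matched to a symbol in the reference table used here, so no function, position or sequence is given and no check with leukocyte marker genes was made. For the same reason 5 members are given by ID and the rest by their ranges and counts.

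PWBC are obtained from the buffy coat of blood by lysis of red cells. They mix granulocytes with lymphocytes and monocytes, in proportions that differ from animal to animal. A transcript present at a like level in all of these cells varies little between blood samples even when the mixture changes, whereas a transcript of 1 cell type follows the share of that type. Genes needed by every cell are the usual examples of steady transcripts and are used as reference genes, against which other genes are measured. In bulk samples, fewer cells of a type and less RNA per cell cannot be told apart, so a low spread refers to the whole mixture. A part of any spread is counting noise, the scatter that arises because a limited number of reads is drawn from each library, and it is larger for genes with fewer counts.

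Members had mean levels of 21.4 to 966 CPM, with a median of 89.6 CPM, against a median of 59.1 CPM over the eligible genes. CPM are not corrected for gene length, so these levels rank reads and not transcripts. Every member had at least 255 counts in every heifer, and the highest value was 26093 counts. The list was not spread evenly over the levels. When the eligible genes were divided by mean level into 4 classes of 1714 genes, the class with the lowest means, up to 34.0 CPM, held 18 members. The next classes held 44 and 67, and the class above 109 CPM held 71. Counting noise alone gives a CV of 5.21% at 20 CPM, not far under the highest CV of the list, which was 6.74%. When the counting variance was subtracted before genes were ranked, 173 of the 200 members stayed, and the numbers in the 4 classes were 33, 56, 60 and 51.

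**Figure D1:**
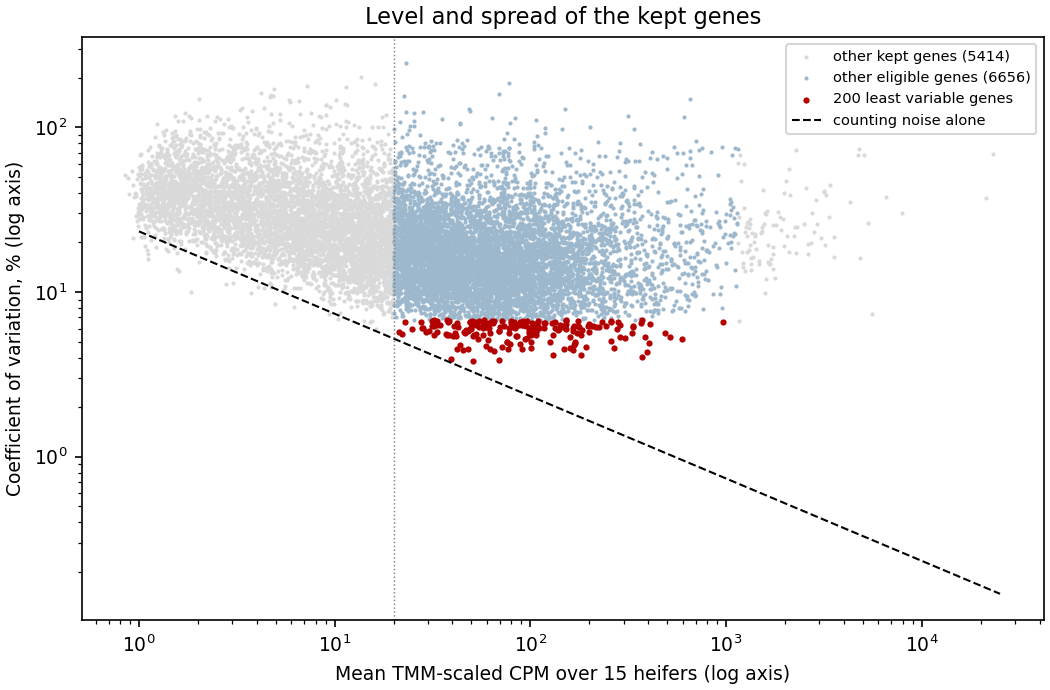
Each point is 1 of the 12270 kept genes, with its mean TMM-scaled CPM over 15 heifers on the horizontal log axis and its CV in percent on the vertical log axis. Red points are the 200 members, blue points the other eligible genes and grey points the remaining kept genes. The dashed line is the CV that counting noise alone gives, and the dotted line marks a mean of 20 CPM. The members lie between 3.82% and 6.74%, while the dashed line falls from 5.21% at 20 CPM towards higher means.

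The CV of the members was between 3.82% and 6.74% with a median of 6.02%, against a median of 15.4% over the eligible genes and 20.2% over all kept genes. The heifer with the highest value of a member exceeded the heifer with the lowest by 1.23-fold in the median member and by 1.14-fold to 1.36-fold over the list. In the median eligible gene this fold was 1.71. Over all members and heifers, 91.9% of the values were within 10% of the mean of their gene, against 46.8% for the eligible genes. In 49 members all 15 heifers were within 10% of the mean. The limit of the list was not a gap, as the last 3 genes inside it had a CV of 6.73% to 6.74% and the first 3 outside it 6.74% to 6.76%.

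The spread of the members was set against counting noise as the variance of a gene divided by the variance that counting alone would give at the depth of these libraries, which is 1 for counting noise and larger where heifers differ in other ways. This ratio had a median of 5.66 over the members and of 27.6 over the eligible genes. It was under 2 in 17 members and in 18 eligible genes in all. It was under 5 in 92 members, or 46.0%, against 4.92% of the eligible genes. In the median member counting noise made up 17.7% of the variance, and with it subtracted the median CV was 5.34%. The 3 members with the lowest means, from 21.4 to 22.9 CPM, had ratios of 1.27 to 1.84. The 3 with the highest means, from 515 to 966 CPM, had ratios of 27.2 to 76.1, although their CV of 5.18% to 6.55% lay in the same range. For the most abundant members the low CV was thus still many times the counting noise. Between heifers of one group, the chi-square per degree of freedom over the members was 3.98 to 12.3 in the 49 pairs, against 38.6 to 262 over the eligible genes, so no pair of libraries within a group was as close as counting noise allows, even over these genes.

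ENSBTAG00000004242 had the lowest CV of all, 3.82%, with 709 to 1309 counts per heifer. Its level was 47.0 CPM in the lowest, 50.1 in the median and 50.8 in the highest heifer pregnant to AI (n = 8). In the 7 not-pregnant heifers the lowest, median and highest values were 48.8, 51.9 and 55.0 CPM. The groups overlapped, and heifer 43 was the lowest and heifer 39 the highest of all. Its variance was 1.36 times the counting variance.

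ENSBTAG00000009726 was the member closest to counting noise, with a variance ratio of 1.1 and a CV of 3.9%. It had 38.2 CPM in the lowest, 40.1 in the median and 42.2 in the highest heifer pregnant to AI. The values in not-pregnant heifers were 36.7, 38.9 and 41.2 CPM. Heifer 42 was the lowest and heifer 4 the highest, and the ranges of the groups overlapped for most of their length. The 10 members with the lowest CV, these 2 included, had a CV of 3.82% to 4.45%, mean levels of 39.4 to 394 CPM and variance ratios of 1.1 to 13.4.

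The spread was also low within each group. The median CV of the members was 5.85% in heifers pregnant to AI (1.61% to 8.87%, n = 8) and 5.43% in not-pregnant heifers (1.53% to 8.60%, n = 7). The eligible genes had medians of 14.2% and 12.8%. A lower CV in not-pregnant heifers was found in 110 of the 200 members, or 55.0%, and in 62.2% of the eligible genes. These values rest on the same heifers as the choice of the members. To measure the spread in heifers outside the ranking, the 200 eligible genes with the lowest CV were chosen in 1 group and measured in the other. The eligible genes and the TMM factors still rested on all 15 heifers. The part of the mean level, which sets counting noise in both groups, was not tested. Genes chosen in heifers pregnant to AI had a median CV of 4.87% there and of 7.69% in not-pregnant heifers, where the eligible genes had 12.8%. In not-pregnant heifers 81 of these 200 genes were in the lowest 10% of the eligible genes and 9 were above the median. Genes chosen in not-pregnant heifers had a median CV of 4.46% there and of 8.11% in heifers pregnant to AI, where the eligible genes had 14.2%. Of these, 85 were in the lowest 10% and 17 above the median. Most genes chosen in 1 group were thus not above the median CV of the eligible genes in the other group. The 2 lists shared 32 genes, 16% of each. The list chosen in heifers pregnant to AI held 87 of the 200 members and the other list 80.

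**Figure D2:**
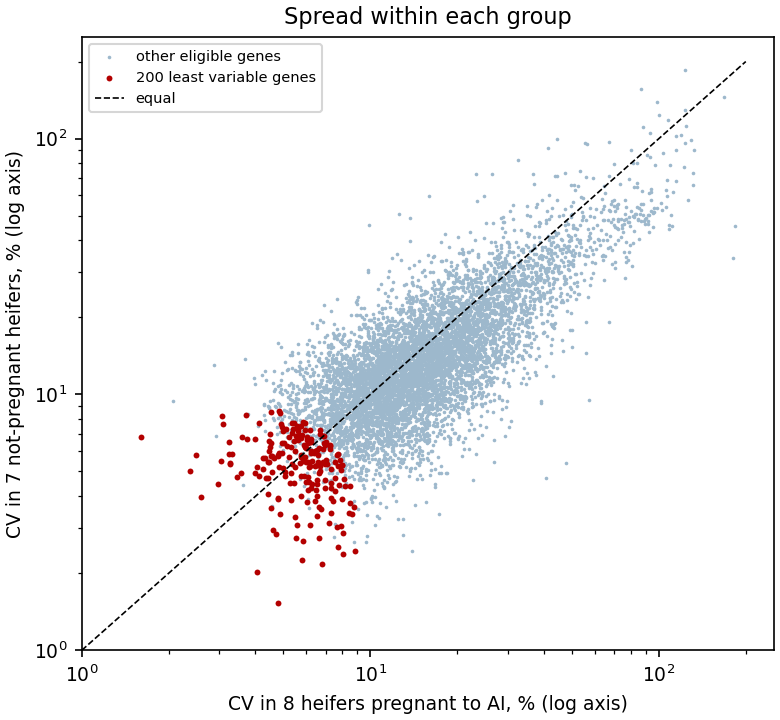
Each point is 1 eligible gene, with its CV in the 8 heifers pregnant to AI on the horizontal log axis and in the 7 not-pregnant heifers on the vertical log axis, both in percent. Red points are the 200 members and blue points the other eligible genes. The dashed line marks equal CV. The members lie at 1.61% to 8.87% on the first axis and at 1.53% to 8.60% on the second, and blue points with a low CV in 1 group are seen among them.

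The choice by low CV keeps the members near their means in every heifer, so the values of each heifer are a description. The median member lay between -0.036 (heifer 34) and 0.030 (heifer 6) on the log2 scale from its own mean. This median was -0.036 to 0.030 in heifers pregnant to AI and -0.028 to 0.019 in not-pregnant heifers. The SD of the members around their means within a heifer was 0.070 (heifer 37) to 0.096 (heifer 42). Heifer 42 had the lowest value of 29 members and the highest of 16, whereas heifers 6 and 45 had the lowest value of only 3 members each. Heifer 43 had the most members at their highest, 23. The range from the lower to the upper quartile was 1.89 to 4.56 times narrower for the members than for the eligible genes in the same heifer. The widest contrast was in heifer 48, whose eligible genes were the most dispersed, and the narrowest was in heifer 42. The first principal component of the standardized log2 CPM of the members held 16.9% of the variance. Over the 6852 eligible genes with a count in every heifer it held 41.0%. Counting noise made up 17.7% of the variance in the median member and 3.62% in the median eligible gene. The parts of counting noise and of the choice by low spread in the lower share were not tested.

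**Figure D3:**
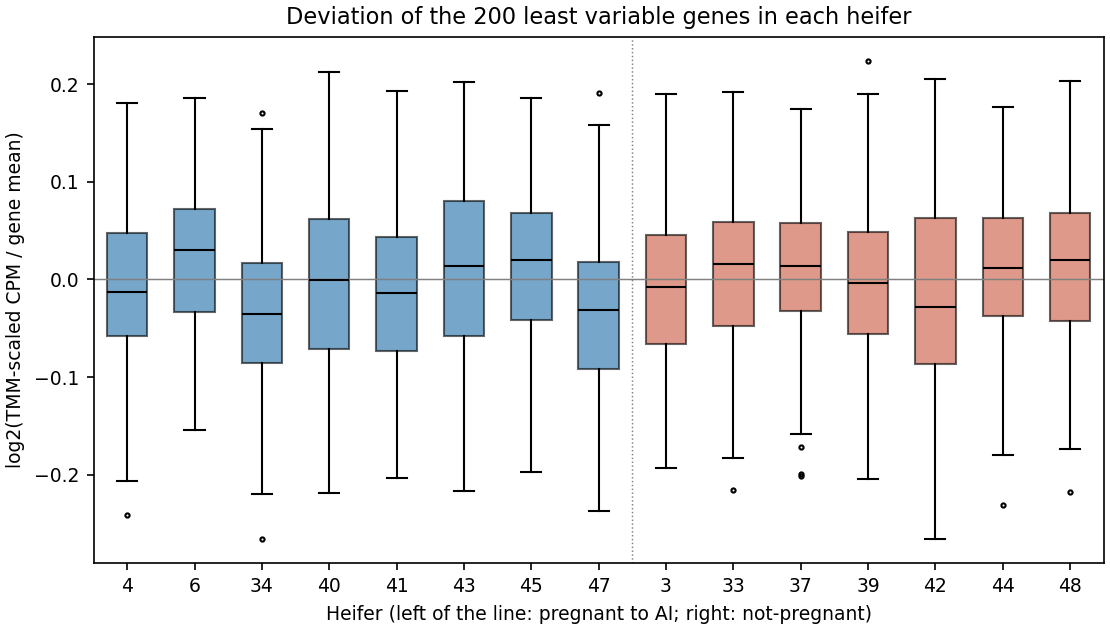
Each box holds the 200 members in 1 heifer, as the log2 ratio of TMM-scaled CPM to the mean of the gene over all 15 heifers. Blue boxes are the 8 heifers pregnant to AI and red boxes the 7 not-pregnant heifers. Boxes span the quartiles with the median as a line, whiskers reach 1.5 times the box, and circles are genes beyond them. All medians lie between -0.036 and 0.030, and the box of heifer 42 is the widest.

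Which genes were least variable depended on the scaling. With the size factors of DESeq2 in place of TMM, 194 of the 200 members were chosen again, but with library size only 8 were. Under library size only the members had a CV of 4.82% to 13.9% with a median of 10.6%. The 200 genes chosen under that scaling had a median CV of 6.06% there and 10.4% under TMM, so each list had a median near 6% under its own scaling and above 10% under the other. The lists were also described by a measure that needs no scaling. The SD over heifers of the log2 ratio of counts of 2 genes had a median of 0.12 over the 19900 pairs of members and 0.12 over the pairs of the other list, against 0.17 between the 2 lists and 0.34 over pairs of eligible genes. The values within and between the lists follow largely from the CVs by which the lists were chosen, so they are a description. Ranked by the median SD of their log2 ratio to all eligible genes, 167 of the 200 members were again among the first 200, and all 200 were in the lowest 10%. This ranking used the same counts and heifers as the choice, so the overlap is no separate support.

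The lists were chosen under scalings whose factors differed between the groups, so the values that follow are a description. The summed counts of the members were 0.97 to 1.21 times those of the list chosen under library size only in heifers pregnant to AI, with a median of 1.15. In not-pregnant heifers the ratio was 0.89 to 1.1 with a median of 1.0. The lowest ratio among heifers pregnant to AI was in heifer 4 and the highest among not-pregnant heifers in heifer 37. Heifers 4, 6 and 40 lay below heifer 37, so the groups overlapped. As a share of all counts the members made up 2.26% to 2.87% in heifers pregnant to AI and 2.12% to 2.66% in not-pregnant heifers. After TMM scaling the shares were 2.42% to 2.53% and 2.47% to 2.51%. The TMM factors, which made this difference, had a median of 1.08 in heifers pregnant to AI (0.916 to 1.14) and 0.929 in not-pregnant heifers (0.842 to 1.06). With library size only, the median log2 fold change went from 0.014 to 0.18 over all kept genes and from -0.0046 to 0.16 over the members, so relative to all genes the members stayed within 0.019 below the median under both. The direction of a small group difference in a member is therefore relative to the scaling.

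**Figure D4:**
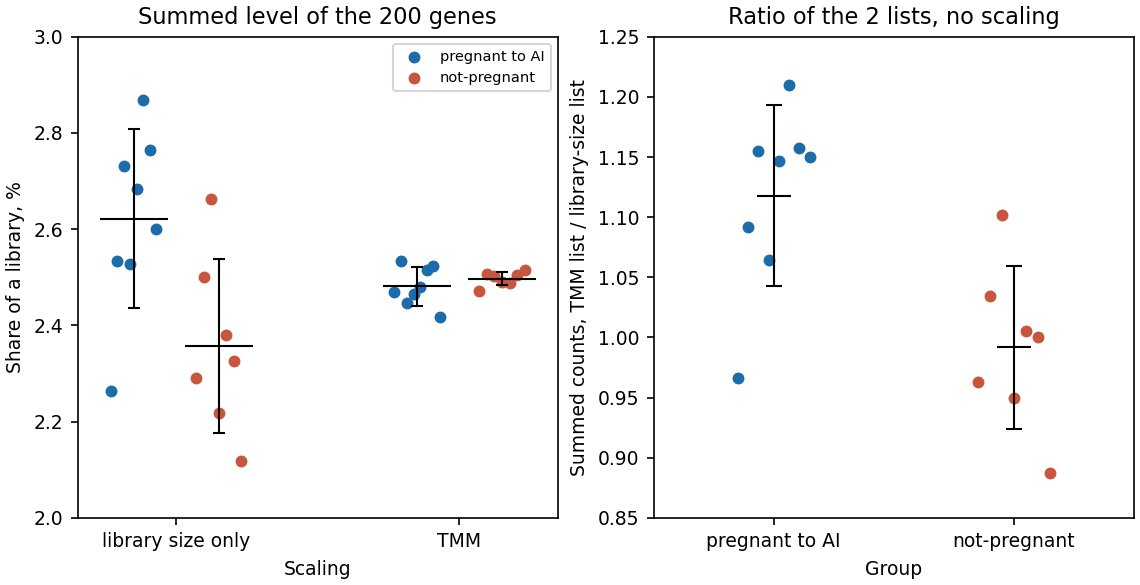
The left panel shows the summed level of the 200 members in each heifer as a percentage of its library, under library size only and under TMM. The right panel shows the summed counts of the members divided by those of the 200 genes chosen under library size only, without any scaling. Points are heifers and bars are the mean ± SD of the 8 heifers pregnant to AI (blue) and of the 7 not-pregnant heifers (red), and neither vertical axis starts at 0. Under TMM all heifers lie between 2.42% and 2.53%, and the ratio is between 0.97 and 1.21 in blue and between 0.89 and 1.1 in red.

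The remaining difference between the groups asked whether the least variable genes still differed with the later pregnancy outcome. The spread over all 15 heifers includes any difference between the groups, so the choice of the members limited how large this difference could be. With the highest CV of the list, the means of the groups could differ by 0.19 on the log2 scale at most. Over all 12270 kept genes, edgeR's quasi-likelihood test was run with Benjamini-Hochberg adjustment. Log2 fold changes above 0 stand for higher levels in the heifers that became pregnant to AI. The log2 fold changes of the members were between -0.14 and 0.11 with a median of -0.0046, or a difference of -9.44% to 8.11% in level. They were above 0 in 90 members and below 0 in 110. In 187 members the log2 fold change was within 0.1 of 0, or 93.5%, against 25.8% of the kept genes.

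A gene was called when its adjusted p was 0.05 or lower and its log2 fold change lay at least 0.5 from 0. No member could reach that limit, so nothing is read from the calls. The members were chosen by a spread that includes any difference between the groups. Their counts at a p alone are therefore a description, and nothing is read from how they differ from the shares of the kept genes. By edgeR 0 members were called, against 5.85% of the kept genes. Without the limit on the fold change 0 members passed the adjusted p, against 12.2% of the kept genes, and the lowest adjusted p of a member was 0.0621. At an unadjusted p under 0.05 there were 6 members, or 3.00%, against 34.4% of the kept genes. limma-voom called 0 members (5.95% of the kept genes), passed 0 at the adjusted p alone (12.4%) and gave 6 at an unadjusted p under 0.05 (34.7%). DESeq2 called 0 members (9.1%) and gave 13 at an unadjusted p under 0.05 (36.4%). The paper, which used an earlier DESeq2 release and names a Bonferroni correction, reports far fewer genes at limits of the same values. The cause of that difference was not tested. At its adjusted p alone DESeq2 passed 3 members, against 20.4% of the kept genes. Of these, 1 was higher (10.4% of the kept genes) and 2 were lower (10%) in heifers pregnant to AI. edgeR draws the variance of each gene towards that of genes of a like level. Its standard error was above the one computed from the heifers of the gene alone in all 200 members (medians 0.058 and 0.044) and in 44.2% of the eligible genes. The members were chosen by low spread. The part of that choice in this difference, and the part of the difference in the counts of each tool, were not tested. Exact permutation tests of the difference in mean CPM were run over all 6435 splits of the heifers (two-sided). In these, 27 members had an unadjusted p under 0.05, or 13.5%, against 32.7% of the kept genes. After adjustment 0 members and 0 kept genes passed. The smallest exact p was 0.000155, the lowest that 6435 splits allow. This limits how low an adjusted p can fall, so nothing is read from the lack of genes passing. The share over all kept genes moved with the heifer that was left out. For 13 of the 15 heifers, 0 members passed the adjusted p of edgeR, and the share of the kept genes was 0.758% (without heifer 48) to 10.2% (without heifer 40). It was also under 2% without heifer 34, 39, 42, 45 or 47. Leaving out heifer 4 gave 2 members at the adjusted p in edgeR (30.7% of the kept genes) and leaving out heifer 37 gave 1 (25.1%). Earlier results of these counts had placed these 2 heifers nearer to the other group, so leaving both out raises a group difference by that choice. It gave 3 members at the adjusted p, all lower in heifers pregnant to AI, against 38.4% of the kept genes in both directions and 19.8% in this one. With library size only, 14 members passed, all higher in heifers pregnant to AI, against 14% of the kept genes in both directions and 12% in this one, and 0 were called, against 8.26%.

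The groups did not overlap in 2 members, against 0.53% of the kept genes. Without heifer 37 there were 4 such members (3.47%), and without heifers 4 and 37 there were 5 (13.4%). With the size factors of DESeq2 there was 1, and with library size only there were 0. The share over all kept genes was not computed under either of these scalings, so nothing is read from these counts. ENSBTAG00000001038 was the member with the smallest edgeR p. It had 96.2 CPM in the lowest, 101 in the median and 108 in the highest heifer pregnant to AI. In not-pregnant heifers the values were 110 in the lowest, 111 in the median and 118 in the highest. Every heifer pregnant to AI was below every not-pregnant heifer. The means were 102 ± 4.69 CPM (SD, n = 8) and 113 ± 3.35 CPM (SD, n = 7). The log2 fold change was -0.14 (standard error 0.049, edgeR adjusted p = 0.0621). DESeq2 gave an adjusted p of 0.00971, and the exact permutation p was 0.00047 (two-sided, adjusted p = 0.0568 over all kept genes). Its edgeR adjusted p was 0.0299 without heifer 4 and 0.0476 without heifer 37. With library size only the log2 fold change was 0.018 (edgeR adjusted p = 0.827), and over all settings run, DESeq2 and limma-voom included, the adjusted p was 0.00971 to 0.827.

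ENSBTAG00000031564 was parted in the other direction. In heifers pregnant to AI its lowest, median and highest values were 166, 173 and 185 CPM. In not-pregnant heifers they were 157, 162 and 166 CPM, the highest of which, in heifer 37, lay just under the lowest of the first group, in heifer 40. The means were 175 ± 7.10 CPM (SD, n = 8) and 163 ± 3.29 CPM (SD, n = 7), which by edgeR differed by 0.10 on the log2 scale (standard error 0.047, adjusted p = 0.129). With library size only the log2 fold change was 0.27 (edgeR adjusted p = 0.0359) and the groups overlapped. With the size factors of DESeq2 they overlapped by less than 0.1 of a scaled count, as heifer 42 (not-pregnant) then lay just above heifer 40. The DESeq2 adjusted p was 0.0271, the lowest of the settings run, of which the highest was 0.243. The exact permutation p was 0.00078 (two-sided, adjusted p = 0.0568 over all kept genes).

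The third member that DESeq2 passed, ENSBTAG00000001055, was named after its values were seen. It had 354 CPM in the lowest, 396 in the median and 407 in the highest heifer pregnant to AI, against 403, 429 and 460 CPM in not-pregnant heifers. Below every not-pregnant heifer lay 6 of the 8 values of the other group. The means were 391 ± 17.3 CPM (SD, n = 8) and 429 ± 17.5 CPM (SD, n = 7), which by edgeR is -0.14 on the log2 scale (standard error 0.054, adjusted p = 0.0961), with a DESeq2 adjusted p of 0.0161. With library size only its log2 fold change was 0.029 (edgeR adjusted p = 0.77). For ENSBTAG00000004242, the member of lowest CV, the log2 fold change was -0.058 (standard error 0.046, edgeR adjusted p = 0.385). For ENSBTAG00000009726, the member closest to counting noise, it was 0.043 (standard error 0.049, edgeR adjusted p = 0.544), and 0.20 with library size only (edgeR adjusted p = 0.0594). The 5 members with the smallest edgeR p in each direction had log2 fold changes of -0.14 to -0.11 and of 0.091 to 0.11.

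**Figure D5:**
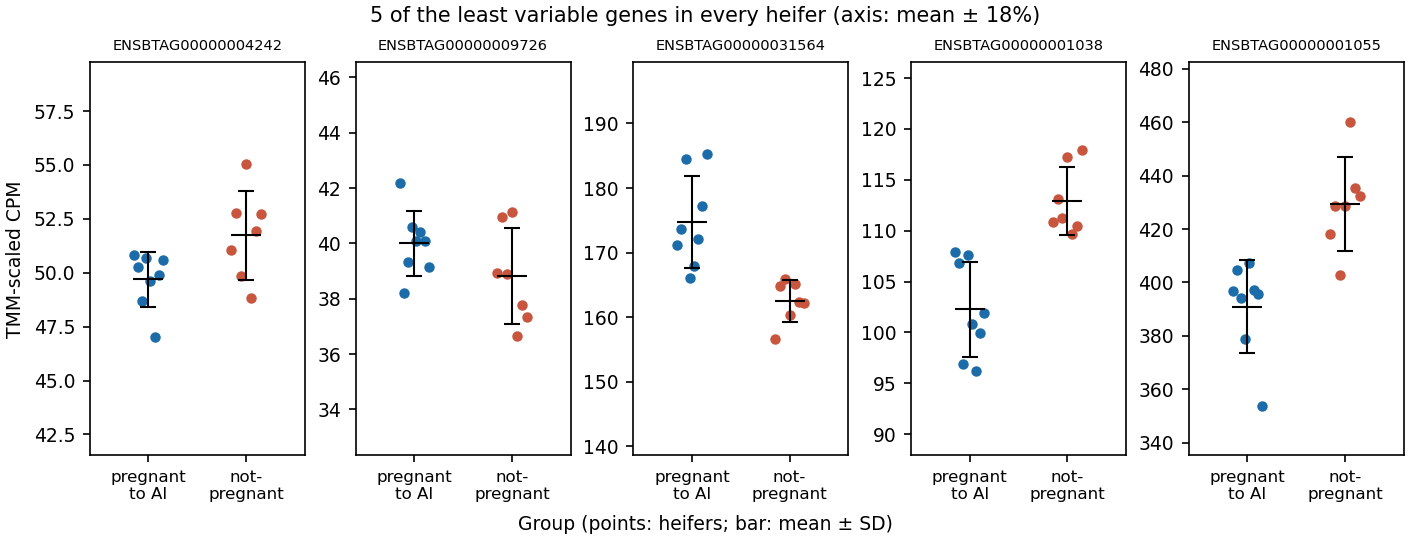
Each panel shows 1 member in every heifer as TMM-scaled CPM, with heifers pregnant to AI in blue (n = 8) and not-pregnant heifers in red (n = 7). Points are heifers and bars the mean ± SD. Each vertical axis spans 18% on either side of the mean over the points and does not start at 0. Under TMM the groups are parted for ENSBTAG00000031564, where blue points are higher, and for ENSBTAG00000001038, where they are lower, and overlap in the other panels.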

How the data were processed

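PWBC mRNA from 15 heifers was sequenced as paired-end 100 bp reads. The authors aligned the reads with STAR 2.7.5 to the Ensembl Bos taurus genome (ARS-UCD1.2), counted them per gene with STAR and deposited raw counts, which are whole numbers without normalization. The study's summary of the STAR gene counts is marked reverse-stranded. The annotation release is not given in the sources used here. The deposited CPM table was not used. Groups came from the labels.

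Genes reaching 1 CPM in 8 of 15 heifers were kept, effective library sizes were set by TMM on these genes, and CPM, CV and the counting (Poisson) variance were computed. Groups were compared with edgeR 4.0.16 in R 4.3.3, with pregnancy status as the only term; DESeq2 1.42.0 and limma-voom (limma 3.58.1) were alternatives. Standard errors for edgeR were derived from the size of the log2 fold change and its F statistic. Permutation tests used Python 3.11.15, numpy 2.4.6 and scipy 1.17.1. Log2 ratios of counts used a pseudocount of 0.5. edgeR, DESeq2 and limma-voom were each run on simulated counts with planted differences far larger than those of the members. Those runs do not show how the tests perform for differences as small as those of the members. Reads carry no molecular identifiers, so counting noise covers counting error only, and depth limits the members near 20 CPM most.

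The members, lists and tests were chosen with earlier results of these data known. The naming rule was the 10 members with the lowest CV, the 5 with the smallest edgeR p in each direction, the 3 genes on each side of the limit and the 3 members with the highest and the lowest mean, of which few are given by ID. Planned gene lists, cell type markers and promoter features were not run, because no ID could be paired with a name, and near-identical gene copies could not be marked.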

Additional observations from a re-analysis of the deposited data

Results flagged for a closer look

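Gaps between heifers were examined in 14 sets (4 members and 3 summaries of the members, each in 2 groups), and chance gives about 1 in 20. In 1 set a heifer lay far from the rest. The SD of the members around their own means, on the log2 scale, was 0.0960 in heifer 42, against 0.0805 for the next not-pregnant heifer, a gap of 0.585 of the range where the critical value for 7 heifers is 0.568. In heifers pregnant to AI, heifer 43 had 0.0949 and heifer 40 had 0.0920. Without heifer 42, 164 of the 200 members were chosen again.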

How the results depend on the processing

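Of the 200 members, 184 were kept without a filter on low counts, 190 when ranked by the SD of log2 CPM, 155 with a minimum mean of 50 CPM (the number of members above it) and 163 without heifers 4 and 37, a setting added after the data were seen. With each heifer left out the list kept 163 (without heifer 43) to 184 (without heifer 37) members, and 136 members were kept in all 15 lists. The number kept fell to 8 with library size only, 87 when ranked by the median absolute deviation over the median, 87 when chosen in heifers pregnant to AI alone and 80 in not-pregnant heifers alone. The cause was not tested.

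The median CV of the list was 7.09% with the median absolute deviation, 4.87% in heifers pregnant to AI alone and 4.46% in not-pregnant heifers alone, and 5.81% to 6.04% with each heifer left out. The median variance ratio was 7.34 with a minimum mean of 50 CPM, which leaves genes with less counting noise, 7.55 with the median absolute deviation, 4.21 with the counting variance subtracted, 3.32 in heifers pregnant to AI alone and 2.53 in not-pregnant heifers alone.

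Between the groups, the count of members called with the fold change limit could only be 0, since the highest CV of the members allows group means to differ by 0.19 on the log2 scale, or 0.40 with library size only. The median log2 fold change of the members was -0.011 to 0.00094 with each heifer left out and moved only with library size only, to 0.16. The members that passed the adjusted p without a fold change limit numbered 14 with library size only (14% of the kept genes) and 3 with DESeq2 (20.4%). There were 3 without heifers 4 and 37 (38.4%). With single heifers left out there were 0 to 2 (2 without heifer 4, 1 without heifer 37). In those single-heifer settings the share of all kept genes was 0.758% (without heifer 48) to 30.7% (without heifer 4). Members whose groups did not overlap numbered 1 with size factors and 0 with library size only, where the share over all kept genes was not computed. They numbered 5 without heifers 4 and 37 (13.4% of the kept genes) and 2 to 4 with single heifers left out, where 4 came without heifer 37 (3.47%). Without any other single heifer the share over all kept genes was not computed, so nothing is read from those counts. ENSBTAG00000004242 and ENSBTAG00000001038 reversed with library size only, to 0.11 and 0.018 on the log2 scale. No paired analysis was possible because no label pairs heifers of the 2 groups. The planned gene lists and promoter features were not run, and DESeq2, limma-voom and the lack of a filter give no overlap count of their own.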

Other observations

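Few genes outside the eligible set had a CV as low as that of the members. Of the 100 most abundant genes, whose median CV was 23.6%, 1 had a CV under the highest of the list, at 6.62%. Of the 5311 kept genes with a mean under 20 CPM, 4 did. None of the 5 genes set aside by ID did, with a CV of 9.62% to 30.1%. Counting noise alone gives a CV of 5.21% at 20 CPM and more at lower means. Its upper quartile over all kept genes was 8.37%, above the highest CV of the list, 6.74%. The count under 20 CPM is thus limited by depth and does not show how steady those genes are.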
